A study of Arabidopsis thaliana with 4 samples.

Results

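MM2d is an Arabidopsis thaliana line that grows as suspended cells in liquid medium. The 187 probe sets described here had a higher signal on each later sampling day than on the one before, and ended day 7 at 4 times their day 1 signal or more. They were picked from 22746 probe sets by a rule on the measured values themselves. Signals below 25 were raised to 25, each step (days 1 to 3, 3 to 5 and 5 to 7) had to be at least 1.2-fold upward, and day 7 had to be at least 4 times day 1. They made up 0.822% of all probe sets and 1.22% of the 15344 with a signal above 25 on at least 1 day. Because the rule used all 4 arrays, the values below describe the members and test nothing.

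Each of the 4 groups was 1 ATH1 array of total RNA, from cells collected on day 1, 3, 5 or 7 after subculture. The culture was begun by adding 5 ml of cells in early stationary phase, 7 days after their own last subculture, to 100 ml of MS-salt medium. Sucrose stood at 3% in that medium, with the auxin NAA at 0.5 mg/l and kinetin, a cytokinin, at 0.05 mg/l. All groups were kept in the dark at 27 °C and 130 rpm. No group had a replicate, no mutant or untreated culture was included, and the labels do not say whether the days came from 1 flask. No error can therefore be put on a difference between days.

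A plant cell suspension of this kind first divides and then stops as sugar, phosphate or nitrogen runs out. Late in such a culture cells loosen and cross-link their walls, recycle cytoplasm through autophagy and the vacuole, and secrete peroxidases. Autophagy wraps cytoplasm in a membrane sac coated with ATG8 proteins and delivers it to the vacuole, where proteases such as the vacuolar processing enzymes act. Tetraspanins are membrane proteins that organise patches of the plasma membrane and mark secreted vesicles.

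Of the 187 probe sets, 92 name 1 gene each, 1 names several genes and 94 have no gene in the annotation used here. Among the 92, 18 carry a gene symbol and 74 only a locus code, whose product class is given below from general knowledge where it is certain. Unnamed probe sets were 50.3% of the members and 41.3% of all measured probe sets. They held 6 of the 10 largest differences, and their median difference between days 7 and 1 was 6.40-fold, against 5.76-fold for the members that name 1 gene. A suffix for possible cross-hybridisation stood on 4 members (2.14%, against 4.29% of measured probe sets).

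The arrays were similar in general properties. Between 57.3% and 61.9% of probe sets lay above 25, and the median signal ran from 36.3 on day 1 to 44.3 on day 7. The ratio of 3' to 5' signal for actin was 1.45 on day 1 and between 1.05 and 1.18 on the later days. For ubiquitin it was 1.59 on day 1 and between 1.22 and 1.30 later, and for GAPDH it stayed between 0.950 and 1.12. The actin and ubiquitin ratios thus differed most over the first step, and their part in the members' first step was not tested. Of 48 marker genes for green, xylem, root hair, seed, phloem, guard, epidermal and dividing cells, only 3 were measured by a probe set of their own, too few to check the cell type. A gene counted as measured only with a signal above 25 in a probe set annotated to that gene alone. Genes without such an annotation were left out whatever their expression, and 0 of 33 listed cytosolic ribosomal protein genes counted as measured. RCA, the activase of Rubisco in green cells, had signals of 152, 112, 150 and 93.6 on days 1, 3, 5 and 7. The other measured markers lay near or below 25. FMA of guard cells had 35.2, 42.8, 21.8 and 27.7, and EXPA7 of root hairs 10.1, 17.8, 9.68 and 28.9. In such bulk RNA, more cells of a type and more RNA per cell cannot be told apart.

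Members lay around the middle of the array on day 1 and high on day 7. Their signal on day 1 ranged from 7.76 to 427 with a median of 46.3, and 40 lay below 25, so that their fold differences are lower bounds. By day 3 the median was 93.3, by day 5 it was 217, and by day 7 it was 383 with a range of 102 to 3074. Only 110 of the 187 lay above the array's median signal on day 1, 165 did on day 3, and all did on days 5 and 7. The number among the top 1% of signals went from 0 on days 1 and 3 to 5 on day 5 and 21 on day 7. Their summed share of all signal was 0.441%, 0.965%, 2.20% and 3.81% on the 4 days. Signals of different probe sets depend on their probes, so these ranks do not order transcripts by abundance.

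The median difference between days 7 and 1 was 6.06-fold (quartiles 4.91 and 9.31, bounds included). It was at least 10-fold for 42 members, at least 20-fold for 17 and at least 30-fold for 7. Of these, the 3 largest belonged to unnamed probe sets and to the one of several genes. The top one, unnamed, had signals of 15.3, 62.4, 1304 and 2587 on the 4 days, at least 103-fold higher at the end. Another unnamed probe set had 36.6, 671, 1175 and 2126, a 58.1-fold difference. The first gained most between days 3 and 5 and the second between days 1 and 3, although both met the same rule. The probe set shared by AT1G78830 and AT1G78820, which cannot separate these genes, had 28.4, 158, 1634 and 2249.

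The middle step was the most frequent step of largest gain. It was the largest of the 3 steps in 91 members, the first step in 61 and the last in 35. For the 147 members with day 1 at or above 25, these counts were 73, 52 and 22. For the 40 below 25, whose first step is only a bound, they were 18, 9 and 13. The median step was 1.78-fold between days 1 and 3, 1.98-fold between days 3 and 5 and 1.62-fold between days 5 and 7. Among all measured probe sets, 28.9%, 28.9% and 26.5% were at least 1.2-fold higher over these steps, and 2.58% were so over all 3. More than 50% of the whole log2 difference fell in 1 step for 89 members, 30 in the first, 48 in the middle and 11 in the last. A near-straight climb, with the 3 log2 steps within 0.5 of each other, was found in 42, members with a bounded first step included. Leaving the day 1 array aside, day 7 was a median of 3.43-fold above day 3, at least 2-fold in 178 members and at least 4-fold in 63.

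**Figure D1:**
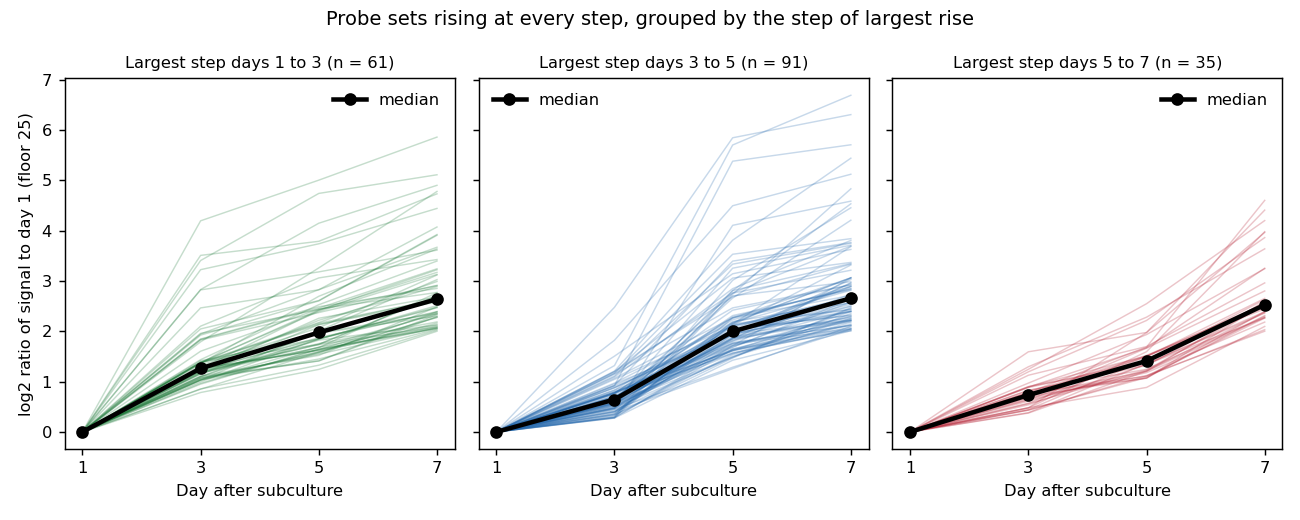
Each thin line is 1 probe set, drawn as the log2 ratio of its signal to day 1 (floor of 25) against the day after subculture, in 3 panels by the step of largest rise, with the median in black. On day 3 the median was 1.26 for the 61 members with the largest first step, 0.64 for the 91 with the largest middle step and 0.73 for the 35 with the largest last step, and all 3 ended between 2.53 and 2.66.

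Few members kept a large pace throughout. Each step was at least 1.5-fold in 53 members and at least 2-fold in 4, of which only AT5G09570 has a name. This gene for a small cysteine-rich protein of the Cox19-like type had signals of 20.9, 57.9, 351 and 1087. It was at least 43.5-fold higher on day 7, the largest value among the named members. The most even climb among named members with day 1 above 25 was that of AT1G76580, of the SBP-box family of transcription factors, with log2 steps of 0.79, 0.90 and 0.89.

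Most probe sets that ended much higher did not take the steady path. In all, 504 measured probe sets (3.28%) were at least 4-fold higher on day 7 than on day 1, and the 187 are 37.1% of them. Of the other 317, 94 missed only the first step, 97 only the middle step and 69 only the last, while 57 missed 2. Where only the middle step was missed, 69 of 97 had a lower signal on day 5 than on day 3. The same was seen in 26 of the 94 that missed the first step and in 33 of the 69 that missed the last. Day 1 lay below 25 in 21.4% of the steady members and in 37.5% of the others, and the median difference was 6.06-fold and 5.66-fold. The rule itself bears on these shares, because a probe set below 25 on both days 1 and 3 cannot pass the first step. The mirrored rule, with each step downward, was met by 117 probe sets (0.763%), while 1.31% were at least 4-fold lower on day 7.

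**Figure D2:**
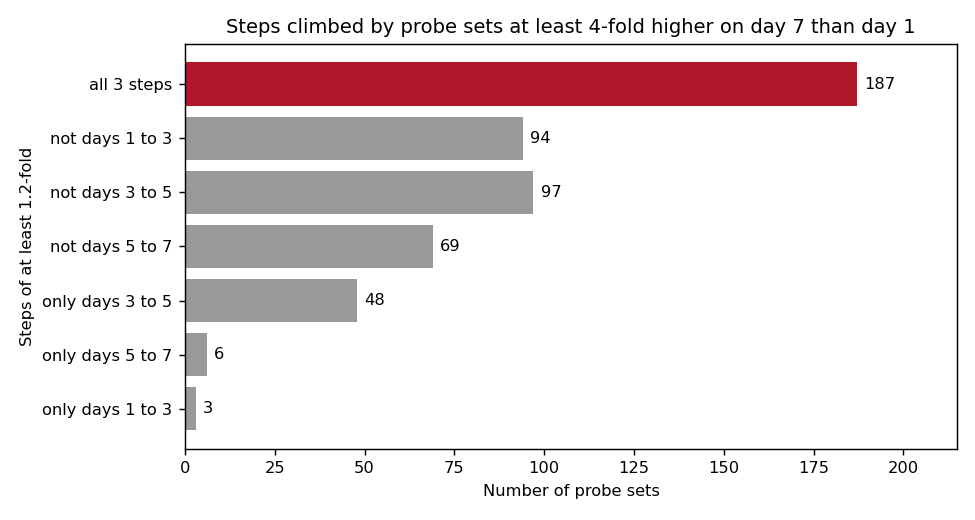
Bars count the probe sets at least 4-fold higher on day 7 than on day 1 by which of the 3 steps were at least 1.2-fold upward. All 3 steps were met by 187, and the next most frequent path, met by 97, missed only days 3 to 5.

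Genes of the cell wall formed 1 group of named members, with 9 genes from at least 4.07-fold to at least 21.3-fold higher on day 7 (median 5.26-fold). Of these, 8 act on xyloglucan, pectin or extensin, and AT1G09460 has a domain that binds glucan. Their grouping was made after the values were seen. EXGT-A3 and XTH19 encode xyloglucan endotransglucosylases, which cut and rejoin the xyloglucan chains that tether cellulose. EXGT-A3 had signals of 203, 350, 584 and 1163, a 5.72-fold difference gained in nearly equal log2 steps of 0.78, 0.74 and 0.99. XTH19 had 119, 152, 547 and 707, a 5.92-fold difference with most of it between days 3 and 5. The enzymes thus reached similar total differences by different paths. CSLC12, which makes the glucan backbone of xyloglucan, had 65.7, 108, 204 and 272.

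Pectin and extensin genes were most of the other wall members. AT2G47550, a pectin methylesterase, had signals of 24.6, 75.4, 98.5 and 532, at least 21.3-fold higher, with its largest step at the end. AT1G14890, of the pectin methylesterase inhibitor type, had 237, 379, 1156 and 1704, a 7.20-fold difference with its largest step in the middle. Extensins are hydroxyproline-rich wall proteins whose chains are hydroxylated, decorated with arabinose and then cross-linked. AT3G22800, a leucine-rich repeat extensin, had 33.1, 85.9, 129 and 163, and gained most before day 3 (2.60-fold). AT5G18900, a prolyl 4-hydroxylase, the enzyme class that hydroxylates extensins, had 136, 285, 403 and 712. XEG113, which adds arabinose to extensins, had 24.0, 45.2, 62.7 and 102, close to the lower limit of the rule. AT1G09460, with a glucan-binding X8 domain, had 86.8, 232, 313 and 456.

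Among the 19 measured genes of the wall-loosening and xyloglucan list, only EXGT-A3 and XTH19 met the rule. Genes in general met it in 1.07% of cases (92 of 8578). In the list 6 genes were at least 2-fold higher on day 7 than on day 1 and 3 at least 2-fold lower, against 11.6% and 10.2% of all genes, and its median log2 ratio was 0.37 against 0.05. XTH18 was 244, 387, 222 and 1433, nearly as different at the end as XTH19 but with a dip on day 5. XTH20 went the other way, with 200, 202, 56.0 and 24.4. EXLA2, an expansin-like gene, had 52.8, 50.4, 238 and 289 and missed the rule at the first step.

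The 4 class III peroxidases among the members, secreted haem enzymes that cross-link or cleave wall polymers, were spread over the range of differences. The largest was that of AT5G39580, with signals of 21.9, 43.1, 80.5 and 608, at least 24.3-fold. AT5G17820 had 63.8, 136, 460 and 893, a 14.0-fold difference. PRX52, which has a known part in lignin formation, had 146, 306, 703 and 1050, a 7.20-fold difference, and AT2G22420 had 46.3, 82.1, 116 and 276. PRX52 and AT5G17820 gained most between days 3 and 5, and AT5G39580 and AT2G22420 between days 5 and 7, by 7.55-fold and 2.38-fold. BGLU46, a beta-glucosidase that releases lignin precursors from their sugar, had 17.5, 37.2, 175 and 580, at least 23.2-fold higher. It was the only member among 11 measured beta-glucosidases, whose median log2 ratio was 0.19. Among all genes 1.07% were members, and the median log2 ratio was 0.05.

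Other peroxidases were also higher at the end without meeting the rule. Of 5 genes matched by symbol, 1 met the rule and 3 were at least 2-fold higher on day 7. By locus code, a list added after the values had been seen, 23 were measured, of which 4 met the rule. On day 7, 13 of the 23 had at least 2-fold more signal than on day 1 and 0 had 2-fold less, and the median log2 ratio was 1.44. Over all genes, 1.07% met the rule, 11.6% gained 2-fold or more by day 7 and 10.2% lost as much. Their median log2 ratio was 0.05. AT1G71695 went from 45.6 on day 1 and 16.4 on day 3 to 1158 on day 5 and 1026 on day 7. AT5G64120 had 16.5, 131, 40.4 and 750. These genes ended at least as far above day 1 as most peroxidase members, but without a higher signal at every step.

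Genes for autophagy, proteases and saposin-like proteins made up 8 named members, from at least 4.66-fold to 29.9-fold higher on day 7 (median 6.98-fold). The step of largest rise was the first in 3 and the middle one in 5, and in none was it the last. Among all members it was the first in 32.6%, the middle one in 48.7% and the last in 18.7%. Whether these 8 genes differ from those shares was not tested. ATG8E had signals of 69.8, 182, 367 and 611, an 8.76-fold difference with steps that became smaller (2.61-fold, 2.01-fold and 1.67-fold). ATG8F had 149, 215, 613 and 739, a 4.97-fold difference, and its last step of 1.205-fold was the smallest step of any member. ATG8E thus had its largest step between days 1 and 3 and ATG8F between days 3 and 5.

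The rest of the autophagy list differed less between the ends of the course. Among the 10 measured genes of the whole list, ATG8E and ATG8F included, 4 exceeded a 2-fold gain by day 7 and 0 a 2-fold loss. The median log2 ratio of the 10 was 0.94. For all genes the shares with such a gain or loss were 11.6% and 10.2%, and the median was 0.05. The 4 gains were those of ATG8E, ATG8F, APG8A and ATG8C. APG8A had 80.1, 144, 210 and 262 and ATG8C 122, 154, 204 and 308. Both were higher on each later day, but under 4-fold in all. ATG8G was lower at the end, with 290 on day 1 and 185 on day 7, and ATG3, an enzyme that attaches ATG8 to lipid, had 210 and 160.

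Proteases and saposin-like proteins were the rest of this group. GAMMA-VPE, the vacuolar processing enzyme that cuts and activates vacuolar proteins, had 175, 214, 843 and 1148, with 3.93-fold of its 6.57-fold difference between days 3 and 5. BETA-VPE, a relative known from seeds, exceeded 25 only on day 3, at 35.7. AT4G16563, an aspartic protease, had 33.7, 239, 597 and 1007. Its 29.9-fold difference was the largest of any named member with day 1 above 25, and 7.11-fold of it came before day 3. AT1G44130, also an aspartic protease, had 80.0, 177, 442 and 608, and the cathepsin B-like AT1G02300 had 19.9, 36.8, 93.2 and 117. The saposin-like genes AT3G51730 and AT5G01800, of a class that helps lipid breakdown, were 7.39-fold and 5.21-fold higher. On the protease list GAMMA-VPE was the only member of 18 measured genes, 4 of which were at least 2-fold higher. On the senescence list it was the only one of 5, of which 3 were. Among all genes 1.07% met the rule and 11.6% were at least 2-fold higher.

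**Figure D3:**
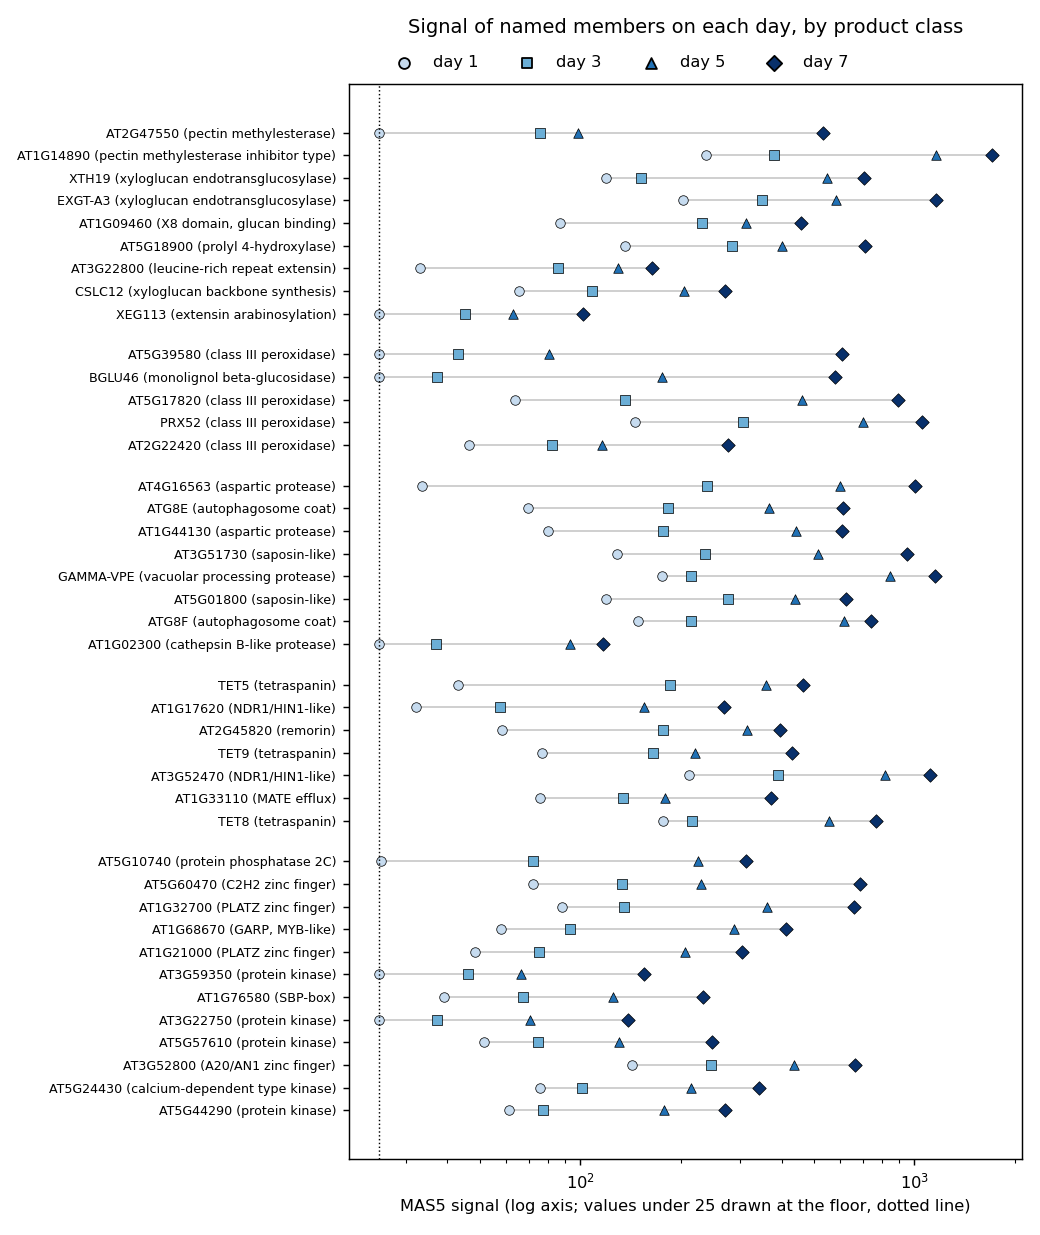
Each row is a named member, in the order wall, peroxidase and monolignol, autophagy with proteases and saposin-like proteins, membrane, and regulator, with its MAS5 signal on days 1, 3, 5 and 7 on a log axis. Values under 25 are drawn at 25, and the spacing of the points in a row shows which step was largest, such as days 1 to 3 for AT4G16563 and days 5 to 7 for AT5G39580.

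There were 3 tetraspanins among the members. TET5 had signals of 43.1, 185, 360 and 464, a 10.8-fold difference, and its largest step was the first (4.30-fold). TET8, a tetraspanin of secreted vesicles, had 177, 215, 554 and 768, a 4.35-fold difference, with its largest step in the middle (2.57-fold). TET9 had 76.6, 165, 220 and 429, a 5.60-fold difference with a weak middle step of 1.33-fold. They thus shared a direction and not a time course. These 3 stood among 7 measured tetraspanins, a list added after the values had been seen, while 1.07% of all genes met the rule. Of the other tetraspanins, TET3 was lower at the end, with 93.8, 64.9, 19.2 and 19.5. TET2 was highest on day 3 and lower after it, at 76.1 on day 5 and 55.1 on day 7.

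**Figure D4:**
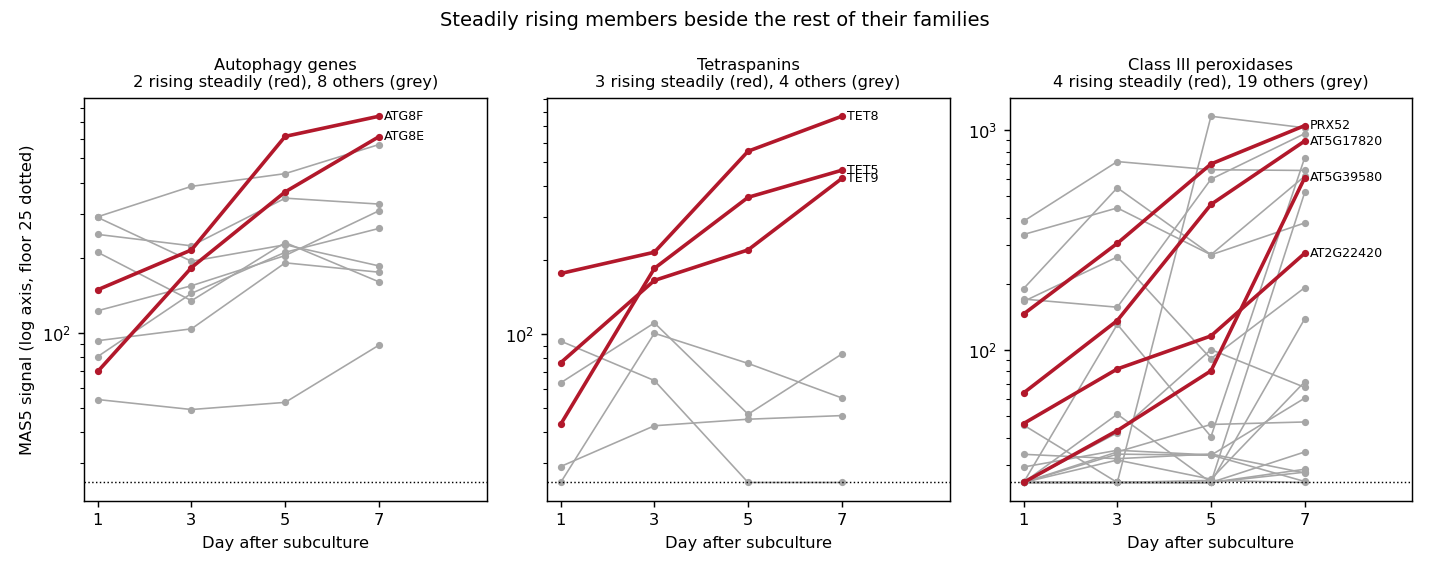
Signal on a log axis by day for all measured genes of 3 families, with steadily rising members in red and the others in grey (values under 25 drawn at 25, dotted). The red lines are 2 of 10 autophagy genes, 3 of 7 tetraspanins and 4 of 23 class III peroxidases, where 1.07% of all genes met the rule. The tetraspanin and peroxidase lists were added after the values had been seen, so their counts are a description and test nothing. AT5G64120, lower on day 5 than on day 3, is among the grey peroxidase lines.

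Other membrane proteins among the members also differed in which step was largest. AT2G45820, a remorin, a protein of plasma membrane patches, had 58.1, 177, 316 and 397. Its largest step was the first, at 3.04-fold. AT3G52470 and AT1G17620, of the NDR1/HIN1-like type of membrane-anchored proteins, were 5.26-fold and 8.36-fold higher on day 7, with the middle step largest in both. AT1G33110, a MATE-type efflux carrier, had 75.8, 134, 180 and 372 and gained most after day 5 (2.07-fold).

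Genes for regulatory proteins were 12 of the named members, from 4.43-fold to 12.4-fold higher on day 7 (median 6.09-fold, bounds included). With signals below the floor raised to it, the middle step was the largest in 8 of them, the last in 4 and the first in 0. The shares among all members, counted in the same way, were 48.7%, 18.7% and 32.6%. A difference of the 12 genes from these was not tested. For AT3G22750 and AT3G59350, counted under the last step, day 1 lay below the floor and the first step is only a bound. Their signals on days 1 and 3 were 8.16 and 37.1 for AT3G22750 and 18.5 and 46.1 for AT3G59350. Without the floor the first step would be the largest in both, against last steps of 1.97-fold and 2.33-fold. AT5G60470, a C2H2 zinc finger protein, had 72.1, 134, 229 and 688, with a last step of 3.00-fold. AT1G32700 and AT1G21000, of the plant-specific PLATZ zinc finger family, had nearly the same profile. Their steps were 1.54-fold, 2.67-fold and 1.81-fold for AT1G32700 and 1.55-fold, 2.73-fold and 1.49-fold for AT1G21000. AT1G68670, of the GARP family of MYB-like factors, had 58.0, 93.3, 289 and 411.

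Signalling enzymes among them were a phosphatase and 5 kinases. AT5G10740, a protein phosphatase 2C, had 25.4, 72.1, 224 and 314, the largest difference of this group at 12.4-fold. The kinases AT3G22750 and AT3G59350 were at least 5.56-fold and 6.20-fold higher, and AT5G57610, AT5G24430 and AT5G44290 were 4.82-fold, 4.54-fold and 4.43-fold higher. AT3G52800, an A20/AN1 zinc finger protein of a stress-related class, climbed evenly with 143, 245, 436 and 663. None of the 6 measured WRKY factors met the rule, which 1.07% of all genes met. Of the 6, 3 were at least 2-fold higher on day 7, against 11.6% of all genes. WRKY47 came near, with 113, 122, 191 and 412.

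Members outside these groups had varied products. LPR2, a multicopper oxidase of the root response to low phosphate, had 90.8, 228, 382 and 790, an 8.70-fold difference. FMO, a flavin monooxygenase, had 122, 191, 828 and 1135, with 4.33-fold between days 3 and 5. AT5G24760, of the alcohol dehydrogenase type, had 199, 410, 855 and 1276. AT1G05340, a short cysteine-rich membrane protein, had 19.8, 30.3, 167 and 713, at least 28.5-fold higher. AT1G78780, of a pathogenesis-related family, had 20.5, 138, 177 and 421, most of it before day 3. The plastid gene atpB, for the beta subunit of the plastid ATP synthase, was also a member, with 294, 616, 783 and 1482.

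The remaining named members with large differences included genes of several classes. AT5G12880, a proline-rich protein, had 132, 304, 850 and 1332. AT5G01750, of the LURP-one type, had 94.7, 339, 521 and 897, and the hydrolase AT5G25770 had 31.5, 82.1, 142 and 250. The first of these gained most in the middle step and the others before day 3. AT2G15320, a leucine-rich repeat protein, and AT3G51660, of the macrophage migration inhibitory factor class, were at least 15.2-fold and 12.5-fold higher. ACA.l had 28.1, 46.7, 64.7 and 170 and AT5G03380, of the heavy-metal-associated type, 47.7, 64.5, 103 and 229, both with their largest step after day 5. AT1G52590 had evenly spread values of 35.0, 63.2, 105 and 157.

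Lists of the supply and growth pathways held no members among their measured genes, which were a part of each list. None of the measured sugar transporters (14 of 59 listed), UDP glycosyltransferases (23 of 64) or nitrogen transporters (9 of 51) met the rule. Nor did any measured gene of amino acid breakdown (9 of 27) or ubiquitin ligase (9 of 68). The share over all genes would give few or none in such lists, and their unmeasured genes could not be assessed. The 7 measured cell division genes (of 46 listed) had a median log2 ratio of -1.07 between days 7 and 1, and 4 were at least 2-fold lower. Over all genes the median was 0.05 and 10.2% were at least 2-fold lower. AUR1, an Aurora kinase of mitosis, had 475, 399, 363 and 227, a signal that was lower on each later day. SWEET10, a sugar transporter, had 7.10, 10.4, 222 and 427 and missed the rule because it was below 25 on both days 1 and 3.

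The limits of the rule separated probe sets with nearly equal values of the limiting ratio, although their profiles could otherwise differ. Just inside the limit of 4-fold lay an unnamed probe set at 4.01-fold, and just outside it AT1G54920 (27.4, 49.0, 69.0 and 110) and ALN, for allantoinase of purine breakdown (43.8, 57.1, 103 and 173, 3.95-fold). At the limit of 1.2-fold per step, ATG8F was inside at 1.20467-fold. AT2G30930, at 12.6-fold over the whole course, and AT3G20510, at 5.06-fold, were outside, at 1.198-fold and 1.195-fold between days 5 and 7. Steps of this size are smaller than the disagreement between 2 probe sets of 1 gene. Over 96 genes with 2 measured probe sets, the SD of a log2 ratio was 0.57, 0.36 and 0.30 for the 3 steps. The step was smaller than that SD in 46 members for days 1 to 3, in 9 for days 3 to 5 and in 6 for days 5 to 7. No named member's gene had another probe set to compare.

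Other scalings of the arrays changed who met the limits but no direction. With arrays scaled to a common median, a common 75th percentile, by quantile normalization or to the hybridisation controls, every step of all 187 stayed upward, and 125 met the rule under all 4. Because members were chosen for steps of at least 1.2-fold, the kept direction was largely set by the rule and tests nothing. Of the 41 members in the wall, peroxidase, autophagy and protease, membrane and regulator groups, 31 did. The exceptions among them were ATG8F, GAMMA-VPE, XTH19, CSLC12, XEG113, TET8, AT3G52800, AT5G57610, AT5G24430 and AT5G44290, each of which had at least 1 step or its total difference below the limit under at least 1 of these scalings. GAMMA-VPE and TET8 missed the rule under all 4. Among the other members named above, AT1G05340, AT5G03380 and AT1G52590 each missed it under at least 1.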

How the data were processed

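Per the submitters' processing notes, the authors made the deposited values with MAS5, with no version stated. Each deposited number is a linear signal intensity of 1 probe set on 1 array. After trimming 2% at both ends, every array's mean came to 100.0, and arrays were compared as deposited. Of 22810 probe sets, 64 AFFX controls were left out. Signals below 25 were raised to 25, and a ratio against such a value is a bound ("at least"). Genes came from the platform's annotation table and RefSeq's table for TAIR10.1. These hold no product names, so product classes of locus codes come from general knowledge. A gene's log2 ratio is the mean over its measured probe sets. With 1 array per day no difference between days was tested, and precision is limited by the number of arrays. The script that applies the rule was checked on simulated data.

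The members, the 38 gene lists and the naming rule were chosen with earlier results of these data known. A further 3 lists were added after the values were seen. Named genes were the largest differences (12 with day 1 above 25, 8 from below), the 8 highest day 7 signals, the 5 largest shares of each step, the 6 most even climbs, list and family members, and those at the limits. Members of a product class and of the wider lists were named after their values were seen. Alternatives covered the floor, the scaling, the limits of the rule and cross-hybridising probe sets. Promoter and protein sequences were not analysed here. Python 3.11.15, numpy 2.4.6 and pandas 2.3.3 were used.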

Additional observations from a re-analysis of the deposited data

How the results depend on the processing

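No paired analysis was possible because each day has 1 array, and for the same reason no replicate could be left out. The counts depend on the limits chosen, given here as members, members that name 1 gene, and members with the largest step first, middle and last, beside 187, 92, 61, 91 and 35. Without a floor they were 352, 179, 134, 158 and 60. With a floor of 50 they were 124, 59, 38, 63 and 23. With any upward step they were 289, 146, 87, 147 and 55, and with steps of at least 1.5-fold 53, 21, 19, 22 and 12. With day 7 at least 6 times day 1 they were 94, 41, 32, 48 and 14, and with at least 3 times 270, 138, 88, 125 and 57. Scaled to a common median they were 131, 60, 39, 59 and 33, and to the hybridisation controls 289, 143, 63, 126 and 100. That last scaling moved the median log2 ratio of all measured probe sets between days 7 and 1 to 0.34, and the common median moved it to -0.12, from 0.07. The middle step was the most frequent step of largest gain in every setting listed. A floor of 10, a common 75th percentile, quantile normalization and leaving out cross-hybridising probe sets gave between 157 and 242 members, within 1.5 times the main count. The median log2 ratio of the members stayed between 2.32 and 3.22 in all settings. Because the rule asked for a 4-fold difference, the sign of a member's ratio was largely set in advance. The log2 ratio of each of 56 named genes stayed above 0 in every scaling and floor, from 1.03 to 5.71. Its size moved by more than the 0.64 SD between probe sets of 1 gene for 15 genes with a floor of 50 and for 1 each with a floor of 10 and with none. For the 40 members below 25 on day 1, the first step is only a bound.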
